A study of Homo sapiens with 4 samples.

Results

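The genes described here encode the proteins of the cytosolic ribosome. They were taken from the count table by symbol: RPL or RPS with a number, with or without one of the suffixes of the known copies and X-linked forms, and RPLP0, RPLP1, RPLP2, RPSA and FAU. The rule found 86 genes among the 19901 genes of the table, 53 for proteins of the large subunit and 33 for proteins of the small subunit, on 21 chromosomes. Of these, 80 had at least 50 counts in all 4 libraries and were tested among 12612 genes, and 6 did not reach that minimum. The rule used names only, not measured values.

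Nascent RNA was profiled by TT-Seq, in which a short pulse of 4-thiouridine (4sU) labels new transcripts so that they can be biotinylated, purified and sequenced. The cells were HCT116, a human colon cancer line, in a derivative with the genotype KAP1_dTAG_CloneD5, which both groups share and which is 1 clone. In it the endogenous KAP1 protein carries a degron tag at its C-terminus, and the ligand dTAG-13 (dTAG) directs the tagged protein to degradation. The comparison asks how transcription responds to acute KAP1 depletion, with cells given DMSO as vehicle or dTAG for 8 h before 10 min of 500 µM 4sU. Each group had 2 libraries, which the methods of the study call biological replicates without saying what separated them, and p-values measure the spread between these libraries. The labels name the material nuclear RNA, whereas the protocol lysed whole cells in TRIzol.

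Ribosomal proteins assemble with ribosomal RNA in the nucleolus and in the cytoplasm into a large and a small subunit. Their genes are short, strongly transcribed in growing cells and mostly broadly expressed, and many carry small nucleolar RNAs (snoRNAs) in their introns. Their mRNAs usually start with a C followed by a run of pyrimidines, the terminal oligopyrimidine (TOP) tract, through which mTOR and LARP1 control translation.

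The TOP start is shown for the 6 genes called below for which a promoter was in the RefSeq table used (GRCh38.p14). It is also shown for a second set of 5 genes that were not called. RPS16, RPS7, RPLP0, RPL11 and RPL7L1 form the second set, which follows no stated rule. RPS7 and RPL7L1 had some of the highest fold changes of the tested genes. The windows are therefore examples and do not compare called with uncalled genes. Each window runs 5′ to 3′ on the gene's strand from 25 bases before the first transcribed base to base 20 of the transcript, and capitals mark the unbroken run of pyrimidines from the first transcribed base. Where RefSeq has several starts, the one with the longest run is shown.
RPL29, chr3:51995876-51995920, minus strand: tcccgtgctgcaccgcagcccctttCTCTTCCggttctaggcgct
RPS21, chr20:62387078-62387122, plus strand: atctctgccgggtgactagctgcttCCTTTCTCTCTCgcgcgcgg
RPL18, chr19:48619159-48619203, minus strand: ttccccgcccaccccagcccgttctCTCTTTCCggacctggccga
RPL10, chrX:154398352-154398396, plus strand: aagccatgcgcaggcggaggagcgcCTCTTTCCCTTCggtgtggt
RPL36, chr19:5690270-5690314, plus strand: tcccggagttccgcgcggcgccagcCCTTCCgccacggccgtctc
RPS27L, chr15:63157458-63157502, minus strand: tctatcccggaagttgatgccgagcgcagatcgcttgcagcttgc
RPS16, chr19:39435930-39435974, minus strand: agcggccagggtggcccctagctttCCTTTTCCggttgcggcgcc
RPLP0, chr12:120201092-120201136, minus strand: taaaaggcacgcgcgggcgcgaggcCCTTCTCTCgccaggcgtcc
RPL11, chr1:23691781-23691825, plus strand: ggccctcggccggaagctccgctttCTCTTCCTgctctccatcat
RPS7, chr2:3575235-3575279, plus strand: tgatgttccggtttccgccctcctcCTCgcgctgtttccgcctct
RPL7L1, chr6:42879591-42879635, plus strand: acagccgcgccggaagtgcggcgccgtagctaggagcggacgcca

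A promoter was listed for 69 of the 86 genes. A C at the first base within a pyrimidine run of at least 5 bases was found in 48 of the 69 (69.6%), against 5.14% of 27305 genes in the table. The copies RPS27L and RPL7L1 lacked such a start, and RPS7 had a run of 3 bases. The word CCGGAAG, a core of ETS factor sites, lay on either strand of the 300-base promoter in 34.8% of the genes and in 12.2% of all genes. The word AAGATGGC, a core of YY1 sites, lay there in 11.6% and 3.52%. These are matches of letters in a window, and neither binding nor the start in use was measured here.

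Gene counts per library ranged from 93105627 to 102314741. The epithelial markers EPCAM, CDH1, KRT8, KRT18 and KRT19 each stood at 12215 counts or more per library. Of the markers of other cell types, PTPRC of blood cells and the fibroblast collagen COL1A2 had at most 1 count per library, PECAM1 of endothelium had 24 to 39, SYP of neuron-like cells 133 to 208, and the fibroblast collagen COL1A1 420 to 538. TRIM28, which encodes KAP1, was at 6107 and 6959 counts under DMSO and at 5357 and 4321 under dTAG (log2 fold change -0.37, SE 0.09, adjusted p = 0.0189 in edgeR's quasi-likelihood test). In the fits described below, TRIM28 was at -0.20 with the length trend removed (adjusted p = 0.117, same test). With the GC and length trends removed it was at -0.10 (adjusted p = 0.173, same test). The RNA does not check the depletion, which acts on the protein.

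The 86 genes took 1.91% and 2.15% of all gene counts under DMSO, and 1.77% and 1.68% under dTAG. Counting error was at most 0.00291 percentage points either side (95% Wilson interval, which covers counting error only). Both dTAG libraries lay below both DMSO libraries, by 0.30 percentage points between the means (2.03% ± 0.17 against 1.73% ± 0.06, SD, n = 2). Leaving out DMSO replicate 2 gave a difference of -0.18, and leaving out DMSO replicate 1 one of -0.42, while 2 libraries against 2 cannot give a two-sided exact permutation p under 0.333. Large subunit genes took 1.20% and 1.36% with DMSO and 1.12% and 1.06% with dTAG. Small subunit genes took 0.705% and 0.791% with DMSO and 0.657% and 0.625% with dTAG. A share of counts also falls where the counts of other genes rise. In bulk nascent RNA, this, fewer transcripts per cell and a change in the makeup of the cells cannot be told apart.

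**Figure D1:**
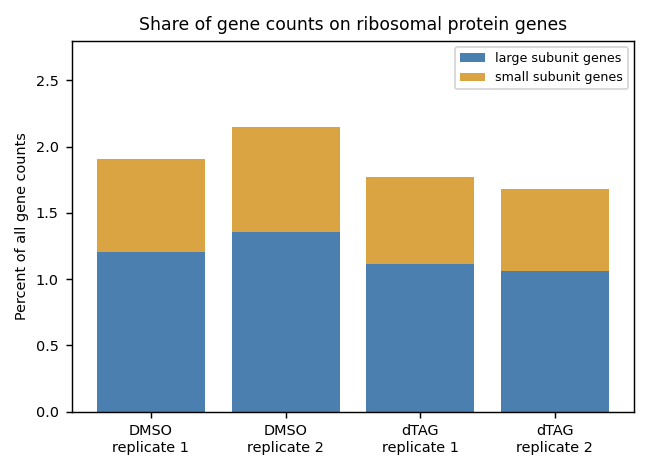
Percent of all gene counts (vertical axis, from 0) that fell on the 86 ribosomal protein genes in each of the 4 libraries, stacked by subunit. The dTAG libraries, at 1.77% and 1.68%, stood below the DMSO libraries, at 1.91% and 2.15%, and the DMSO libraries differed most between replicates.

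By edgeR's quasi-likelihood test, 7 of the 80 genes fell with dTAG (adjusted p under 0.05) and none rose, and DESeq2 called 13 lower and 0 higher, where it called 4.61% of all tested genes lower and 5.48% higher. The 7 genes are 8.75% of those tested, where 3.66% of all tested genes were called lower and 3.44% higher. At an unadjusted p under 0.05, 35 genes were lower and 0 higher, where 14.3% of all tested genes were lower and 12.3% higher. The log2 fold change was below 0 for 70 of the 80, but above 0 for 79 of the 80 with the ERCC spike-in totals as library sizes, a scaling under which the median of the whole table was 0.63. The median was -0.16 (quartiles -0.23 and -0.05), against -0.01 for all tested genes. Relative to the median of all genes, the genes stood at -0.15 as tested, at -0.14 under the ERCC totals and at -0.055 under the ERCC factor, in which a factor estimated from the spike-in RNAs entered the fit as a covariate.

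Both dTAG libraries were below both DMSO libraries for 51 of the 80 genes (63.8%), where 30.7% of all tested genes were. Both were above for 4 genes, where 28.1% of all tested genes were. The median difference from the DMSO mean was -0.13 on the log2 scale for dTAG replicate 1 and -0.19 for dTAG replicate 2, with the DMSO libraries themselves at -0.05 and 0.05.

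**Figure D2:**
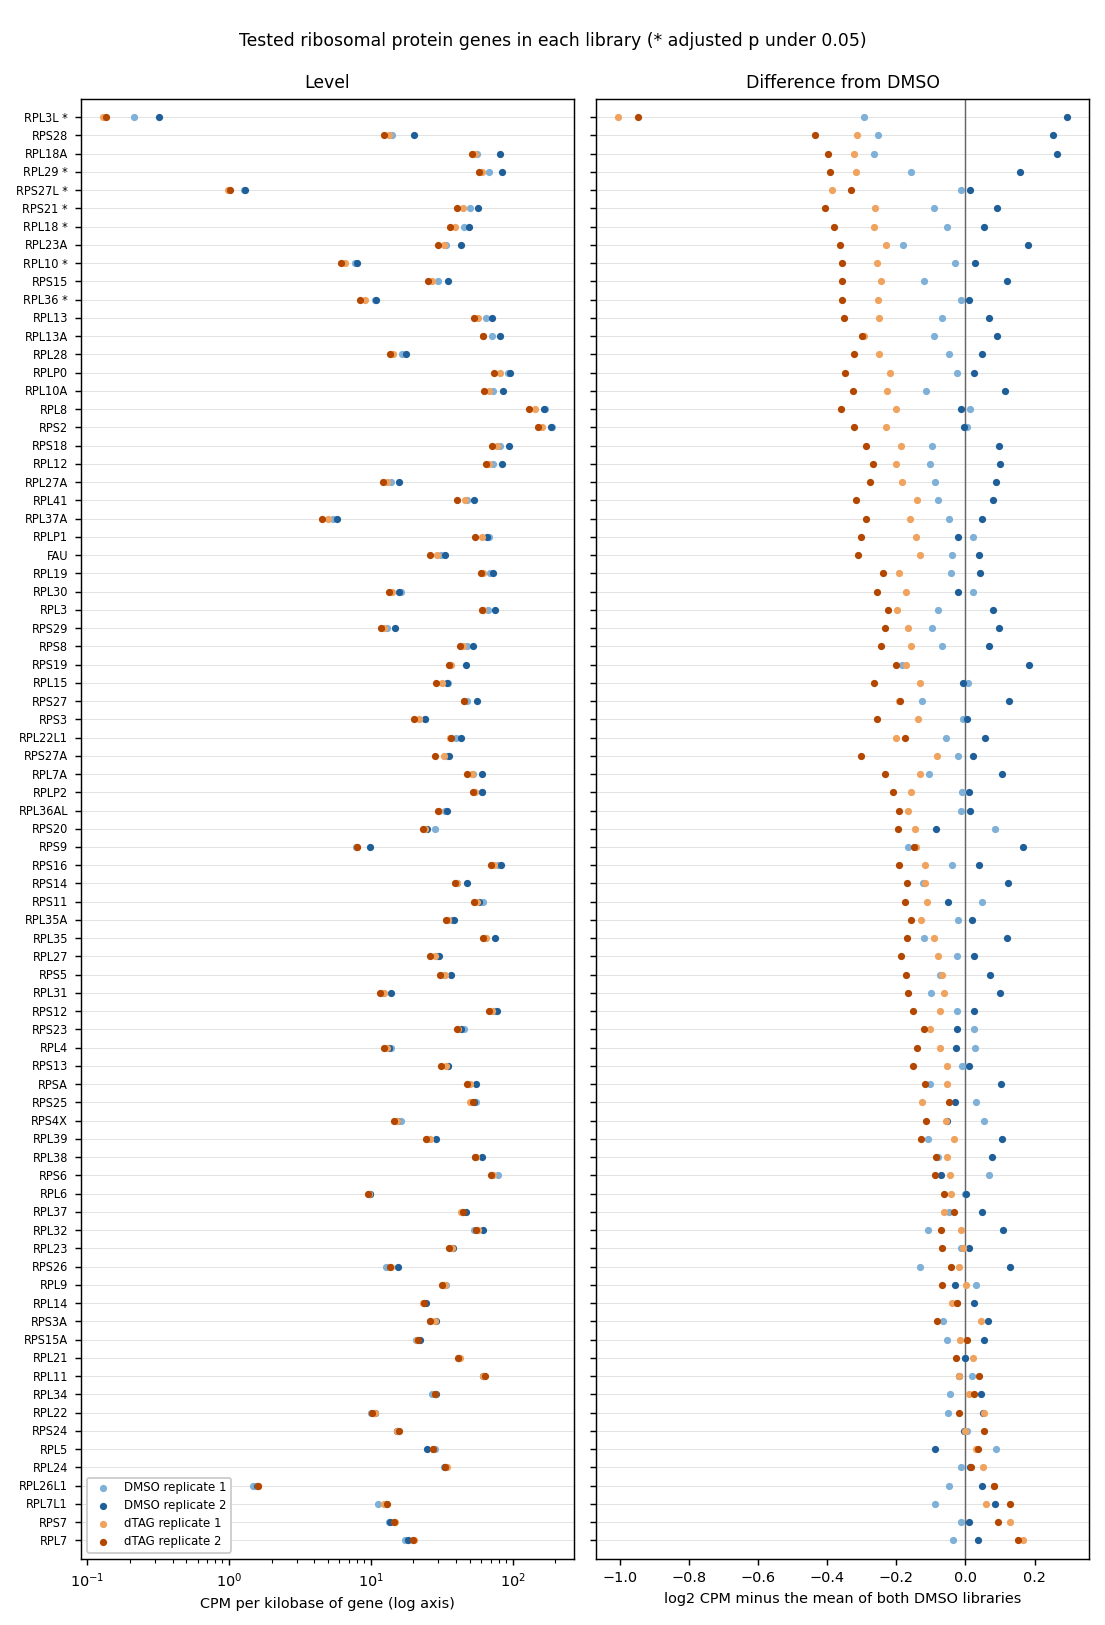
79 of the 80 tested genes (rows, ordered by log2 fold change) in each library, as CPM per kilobase of gene on a log axis at left and as log2 CPM minus the mean of both DMSO libraries at right. The 7 genes with an asterisk had an adjusted p under 0.05 and are all lower with dTAG under TMM scaling, RPL3L is the lowest in both panels, and from RPS19 down the list single dTAG and DMSO libraries begin to cross.

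The 7 genes called lower were RPL3L, RPL29, RPS27L, RPS21, RPL18, RPL10 and RPL36, and RPL3L, the muscle form of RPL3, had the largest difference. Values are CPM, counts scaled to the TMM-adjusted library size. RPL3L (ENSG00000140986.7, chr16:1943973-1957606 of hg38, minus strand) had 2.90 and 4.36 CPM with DMSO and 1.77 and 1.84 with dTAG. These come from 166 to 435 counts a library, and DMSO replicate 2 was well above the other 3 libraries. The log2 fold change was -1.01 (SE 0.22, adjusted p = 0.0101 in edgeR's quasi-likelihood test). RPL3L was also the tested member with the lowest level. RPS2, the member with the highest level, lies just upstream on the same strand (chr16:1962051-1964860). Whether labelled RNA from beyond the end of RPS2 adds to the RPL3L counts was not tested.

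RPL29 (ENSG00000162244.10, chr3:51993599-51995942, minus strand), a large subunit protein that is not essential in mice, had 160.2 and 199 CPM with DMSO and 143 and 136 with dTAG. The DMSO libraries differed from each other by more than DMSO replicate 1 differed from the dTAG libraries, though the groups did not overlap. The log2 fold change was -0.36 (SE 0.10, adjusted p = 0.0299 in edgeR's quasi-likelihood test). RPL18 (ENSG00000063177.12, chr19:48615327-48619536, minus strand), a large subunit gene with rare variants in Diamond-Blackfan anemia, had 192 and 206 CPM with DMSO and 166 and 153 with dTAG. Its log2 fold change was -0.32 (SE 0.09, adjusted p = 0.0335, same test).

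RPS21 (ENSG00000171858.17, chr20:62387115-62388520, plus strand), a protein of the small subunit, had 70.9 and 80.4 CPM with DMSO and 63.0 and 57.0 with dTAG. Its log2 fold change was -0.33 (SE 0.09, adjusted p = 0.0304 in edgeR's quasi-likelihood test). RPS27L (ENSG00000185088.13, chr15:63125871-63158021, minus strand), a copy of RPS27, had 41.0 and 41.7 CPM with DMSO and 31.7 and 32.9 with dTAG. The replicates of each group lay close together and the groups were well apart, with a log2 fold change of -0.36 (SE 0.09, adjusted p = 0.0258, same test). LACTB on the opposite strand covers 50.4% of the RPS27L interval, and how the counting treated strand is not given in the sources used here.

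RPL10 (ENSG00000147403.16, chrX:154389954-154409168, plus strand), a late-joining large subunit protein near the peptidyl transferase centre, had 148 and 154 CPM with DMSO and 126 and 118 with dTAG. Its log2 fold change was -0.30 (SE 0.08, adjusted p = 0.0346 in edgeR's quasi-likelihood test). RPL36 (ENSG00000130255.12, chr19:5674946-5691876, plus strand), also of the large subunit, had 181 and 184 CPM with DMSO and 153 and 142 with dTAG, a log2 fold change of -0.30 (SE 0.09, adjusted p = 0.0376, same test). The table's intervals for both are over 2 times the RefSeq gene length (19215 against 4275 bases for RPL10, 16931 against 1581 for RPL36). Other genes cover 46.8% of the RPL36 interval on its own strand and 41.3% of the RPL10 interval on the other.

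The number of calls changed when single libraries were left out, in this set and in the whole table. Without DMSO replicate 1, 47 of the 80 genes were called lower by edgeR's quasi-likelihood test and 0 higher, where 21.4% of all tested genes were called lower and 22.2% higher. Without DMSO replicate 2, 17 were called lower and 1, RPL7, higher, where 5.47% and 6.41% of all tested genes were. All 7 genes kept their calls in both of these fits. Without dTAG replicate 1, or without dTAG replicate 2, 0 were called in either direction, where 0.571% and 0.167% of all tested genes were called lower and 0.523% and 0.381% higher. The log2 fold changes of the 7 genes were then -0.98 to -0.33 and -1.04 to -0.25, against -1.01 to -0.30 with all libraries. In these fits the lone library of a group is assumed to vary like the others.

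Per kilobase of gene, most of these genes were among the most strongly labelled of the table. Their median DMSO level was 35.03 CPM per kilobase, where that of the whole tested table was 1.06, and 76 of the 80 genes lay above the 90th percentile of all tested genes. The highest levels were those of RPS2 (188 CPM per kilobase), RPL8 (167), RPLP0 (94.6), RPS18 (87.9), RPS16 (80.7), RPL10A (79.7), RPL12 (78.7) and RPL29 (76.7). RPS2, at the mRNA entry side of the small subunit, had 531 and 527 CPM with DMSO and 451 and 423 with dTAG. RPL8, a core protein of the large subunit, had 476 and 467 with DMSO and 409.8 and 367 with dTAG. In both, the DMSO replicates nearly coincided and both dTAG libraries were lower, yet neither passed the test (log2 fold change -0.28 for each, adjusted p = 0.0821 for RPS2 and 0.0814 for RPL8 in edgeR's quasi-likelihood test).

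Of the other high genes, RPS18 and RPS16 belong to the head of the small subunit, RPL10A to the L1 stalk and RPL12 to the base of the P stalk. RPS18 had 369 and 422 CPM with DMSO and 347 and 323 with dTAG, and RPL10A had 175 and 205 with DMSO and 161 and 151 with dTAG. RPS16 had 215 and 227 with DMSO and 204 and 194 with dTAG, and RPL12 had 273 and 314 with DMSO and 255 and 244 with dTAG. In all 4 genes both dTAG libraries were below both DMSO libraries, and none passed the test (adjusted p from 0.0687 for RPL10A to 0.266 for RPS16 in edgeR's quasi-likelihood test). Near the other end stood RPL3L (0.266 CPM per kilobase) and RPS27L (1.29).

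RPLP0, RPLP1 and RPLP2 form the P stalk, which recruits the translational GTPases. RPLP0 had 423 and 438 CPM with DMSO and 369.8 and 338 with dTAG. RPLP1 had 233 and 226 with DMSO and 208 and 186 with dTAG, and RPLP2 had 196 and 198 with DMSO and 176 and 170.3 with dTAG. The dTAG libraries were below the DMSO libraries for the whole stalk, with log2 fold changes of -0.28, -0.22 and -0.18. None of the 3 passed the test (adjusted p = 0.0738, 0.128 and 0.176 in edgeR's quasi-likelihood test).

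RPL5 and RPL11 join 5S rRNA in a particle that can bind the ubiquitin ligase MDM2. RPL5 had 282 and 249.7 CPM with DMSO and 271 and 272 with dTAG, and RPL11 had 322 and 314 with DMSO and 314 and 326 with dTAG. The groups overlapped for both. The log2 fold changes were 0.03 and 0.01, each with an SE of 0.09 (adjusted p = 0.85 and 0.950 in edgeR's quasi-likelihood test). MDM2 itself did not pass the test either (log2 fold change -0.07, adjusted p = 0.670 in edgeR's quasi-likelihood test).

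RPS27A and FAU are made as fusions to ubiquitin and to a ubiquitin-like protein. RPS27A had 136 and 141 CPM with DMSO and 131 and 112 with dTAG, and FAU had 58.1 and 61.4 with DMSO and 54.6 and 48.2 with dTAG. Their log2 fold changes were -0.19 and -0.22 (adjusted p = 0.182 and 0.132 in edgeR's quasi-likelihood test). SYVN1 overlaps 37.6% of the FAU interval on the same strand.

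RPSA, the laminin receptor precursor, had 283 and 326 CPM with DMSO and 292 and 279.8 with dTAG, and RPS19, the gene most often mutated in Diamond-Blackfan anemia, had 471 and 609 with DMSO and 476 and 466 with dTAG. For both, DMSO replicate 2 was the highest library and the groups overlapped. The log2 fold changes were -0.09 and -0.20 (adjusted p = 0.574 and 0.262 in edgeR's quasi-likelihood test).

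Of the 9 genes for proteins near the decoding centre and the mRNA channel, 0 were called (4 lower and 0 higher at an unadjusted p under 0.05), all 9 had values below 0, and their median was -0.20. Of 8 genes for proteins around the exit tunnel, 6 were tested, 0 were called (2 lower and 0 higher at an unadjusted p under 0.05) and the median was -0.13. Of 19 genes linked to Diamond-Blackfan anemia, 17 were tested, 1 (RPL18) was called lower, and values ran from -0.39 for RPS28 to 0.11 for RPS7 around a median of -0.13. The large subunit genes had 5 called lower of 48 (10.4%) and a median of -0.18. The small subunit genes had 2 of 32 (6.25%) and a median of -0.15. Of all tested genes, 3.66% were called lower and 3.44% higher. At an unadjusted p under 0.05 in edgeR's quasi-likelihood test, 14.3% of all tested genes were lower and 12.3% higher. These lists overlap, and their differences were not tested.

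The highest fold changes were those of RPL7, RPS7, RPL7L1 and RPL26L1, of which RPS7 is named after its value was seen. RPL7, of the large subunit, had 96.2 and 101 CPM with DMSO and 111 and 109.7 with dTAG, a log2 fold change of 0.16 (SE 0.08, adjusted p = 0.219 in edgeR's quasi-likelihood test). RPS7, a small subunit protein that binds MDM2, had 77.1 and 78.3 with DMSO and 84.9 and 82.9 with dTAG, a log2 fold change of 0.11 (adjusted p = 0.390, same test). In both, the dTAG libraries lay above the DMSO libraries, the reverse of the order in 51 of the genes.

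Several of these proteins have a second gene. RPL3 was labelled at 71.2 CPM per kilobase and its copy RPL3L at 0.266, a ratio of 267. RPS27 stood at 51.9 and RPS27L at 1.29. RPL7 and RPL7L1 were close, at 17.9 and 12.0. RPL22L1, at 41.4, was above RPL22, at 10.4, so that the copy was the more strongly labelled gene of that pair by this measure. The RPL22 interval is 28122 bases long, against 14576 in RefSeq, and the RPS27L interval 32151 bases, against 9229. Both levels per kilobase were divided by these longer lengths.

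The partners did not move as a block. RPL22 had 282 and 302 CPM with DMSO and 303 and 288 with dTAG (log2 fold change 0.02), whereas RPL22L1 had 223 and 241 with DMSO and 202 and 205 with dTAG (-0.19). RPL3 had 505 and 564 with DMSO and 465 and 457 with dTAG (-0.21), and RPS27 had 66.4 and 79.2 with DMSO and 63.5 and 63.6 with dTAG (-0.20). The adjusted p was 0.921 for RPL22, 0.175 for RPL22L1, 0.176 for RPL3 and 0.175 for RPS27 by edgeR's quasi-likelihood test, so the copies RPL3L and RPS27L passed the test and the parent genes did not. The difference within a pair was not tested. Of the 8 copies, 6 were tested and 2 were called lower, where 3.66% of all tested genes were. RPL7L1 (116 and 131 CPM, then 129 and 135) and RPL26L1 (16.3 and 17.4, then 17.8 and 17.8) had values above 0, at 0.09 and 0.08.

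RPL36AL, the autosomal intron-poor copy of RPL36A, had 73.0 and 74.2 CPM with DMSO and 65.6 and 64.4 with dTAG (log2 fold change -0.18, adjusted p = 0.171 in edgeR's quasi-likelihood test). RPL39 had 128 and 148 with DMSO and 135 and 126 with dTAG (-0.08, adjusted p = 0.567). Ribosomal protein genes have many processed pseudogenes and near-identical copies, and how reads that map to several places were counted is not given in the sources used here. The levels of every gene in this set are therefore uncertain by the share of such reads.

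The 6 genes under the minimum fell into different kinds. RPL10L, the testis copy of RPL10, had 0 counts in each of the 4 libraries, which allows up to 3 counts per library. RPL39L, another testis copy, had 5 and 7 counts with DMSO and 11 and 1 with dTAG. RPL17, RPL26, RPL36A and RPS10 are essential ribosome genes, yet RPL17 had 16, 3, 3 and 2 counts, RPL26 had 1, 0, 8 and 7, RPL36A had 4, 8, 2 and 2, and RPS10 had 7, 8, 4 and 2, in the order DMSO replicates 1 and 2, dTAG replicates 1 and 2. Each of the 4 is covered over more than 90% of its interval by another gene of the table on the same strand.

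The covering genes held more counts. RPS10-NUDT3, a readthrough gene, had 2905 and 3353 counts with DMSO and 2844 and 2617 with dTAG, and RPL17-C18orf32 had 899 and 958 with DMSO and 894 and 850 with dTAG. RPL36A-HNRNPH2 had 363 and 355 with DMSO and 417 and 427 with dTAG. ENSG00000263809, which covers RPL26, had 1522 and 1785 with DMSO and 1661 and 1479 with dTAG. Their levels with DMSO were 0.223, 0.865, 0.170 and 1.14 CPM per kilobase in this order, where the median of all tested genes was 1.06. None of the 4 passed the test (adjusted p = 0.414, 0.918, 0.291 and 0.954 in edgeR's quasi-likelihood test). Whether the covered members are transcribed less than the other ribosomal protein genes was not tested. In contrast RPL32, RPL35A, RPL15 and RPS4X, which genes on the opposite strand cover over their whole length, had 20456 to 44134 counts. These 4 are named after their values were seen.

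Of the 86 genes, 28 hold an annotated snoRNA, and 27 of those were tested. Their median was -0.18 and 1 (3.70%), RPL10, was called lower. The 53 tested genes without one had a median of -0.15 and 6 (11.3%) called lower, where 3.66% of all tested genes were. Among all 237 tested genes with a snoRNA, the median was 0.04, and 5 were called lower and 10 higher.

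The fold change followed base composition in this set as in the whole table. Across the 80 genes, Spearman's rho of the log2 fold change with the GC content of the gene interval was -0.56, and it was also -0.56 across all 12612 genes. Genes share their libraries and are not independent replicates. Between the DMSO libraries, replicate 2 over replicate 1 rose with GC content as well (rho 0.41 across the 80 genes, 0.75 across all), and between the dTAG libraries the same ratio fell (rho -0.33 and -0.43). Thus GC content moved with the fold change and, in both groups, with the difference between replicates, and its part in the result was not tested. Of the 7 called genes, 6 had a GC content of at least 50% and 1, RPS27L at 39.85%, was under 45%.

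Within classes of GC content, the genes had medians below those of all tested genes. Under 45%, 22 genes had a median of -0.09 and all genes 0.09. From 45% to 50%, 28 genes had a median of -0.09 and all genes -0.05. From 50% upward, 30 genes had a median of -0.26, with 6 called lower, and all genes -0.19, with 8.48% called lower. By length the order was different. The 58 genes of at most 10 kb had a median of -0.16, whereas all 2108 tested genes of that length had -0.20, and the 22 longer genes had -0.18. The median interval of the set was 5567 bases, against 36150 for all tested genes.

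**Figure D3:**
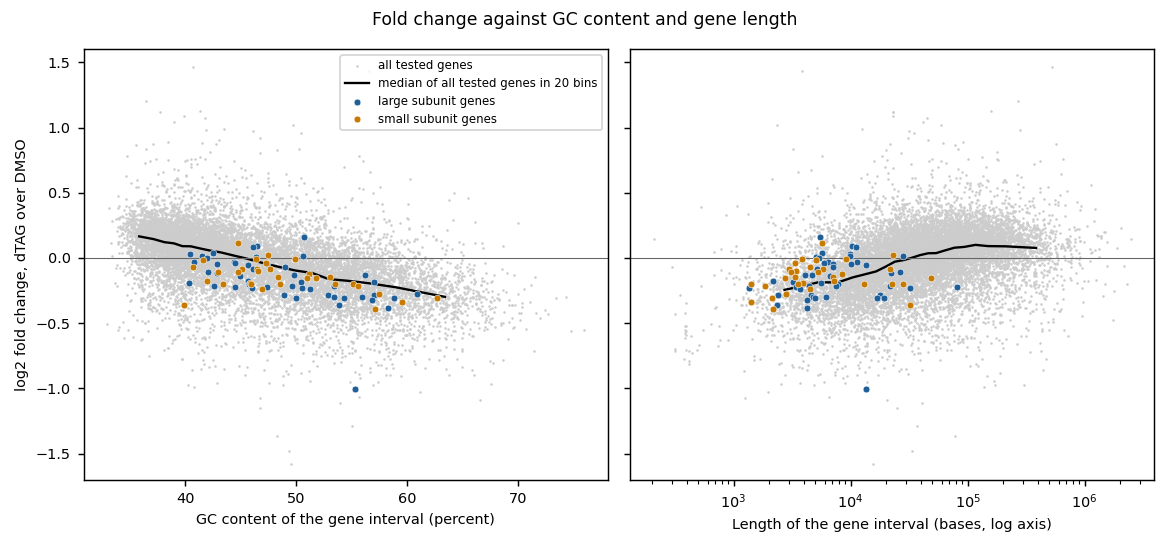
The log2 fold change, dTAG over DMSO, of each tested gene against the GC content of its interval in percent (left) and its length in bases on a log axis (right), with all tested genes in grey, their median in 20 bins as a line, and the large and small subunit genes in color. The ribosomal protein genes follow the falling line with GC content, mostly on or below it, and the short ones lie around the line with length, with RPL3L far below at -1.01.

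When the trend of each library on gene length was removed, the median of the 80 genes became 0.04, 35 values were below 0 and 45 above. Then 4 genes were called lower, where 3.31% of all tested genes were, and 3 higher, where 5.03% were. RPL3L, RPS27L and RPL10 kept their calls at -0.89, -0.35 and -0.24 (adjusted p = 0.0126, 0.0144 and 0.0403 in edgeR's quasi-likelihood test), and RPL37A joined them at -0.29. RPL7, RPS7 and RPL7L1 were called higher, at 0.35, 0.30 and 0.24 (adjusted p = 0.00646, 0.0228 and 0.0479). When the trend on GC content and then that on length were removed, the median was -0.04, 12 genes were called lower, where 7.46% of all tested genes were, and the same 3 were called higher, where 10.6% were. Of the 7 genes first called, RPL3L and RPS27L were among the 12, at -0.79 and -0.46. The median of the set thus differed between these fits, and the part of gene length in it was not tested. With the length trend removed, the 58 genes of at most 10 kb had a median of 0.06 and the 22 longer ones -0.11. Spearman's rho of the log2 fold change with log2 length was 0.24 across the 80 genes and 0.42 across all tested genes. Of the 7 genes, only RPL3L and RPS27L were called lower in all 3 of these fits. RPL3L was not called with the ERCC factor, RPS27L was not with the replicate block, and neither was with the ERCC totals.

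**Figure D4:**
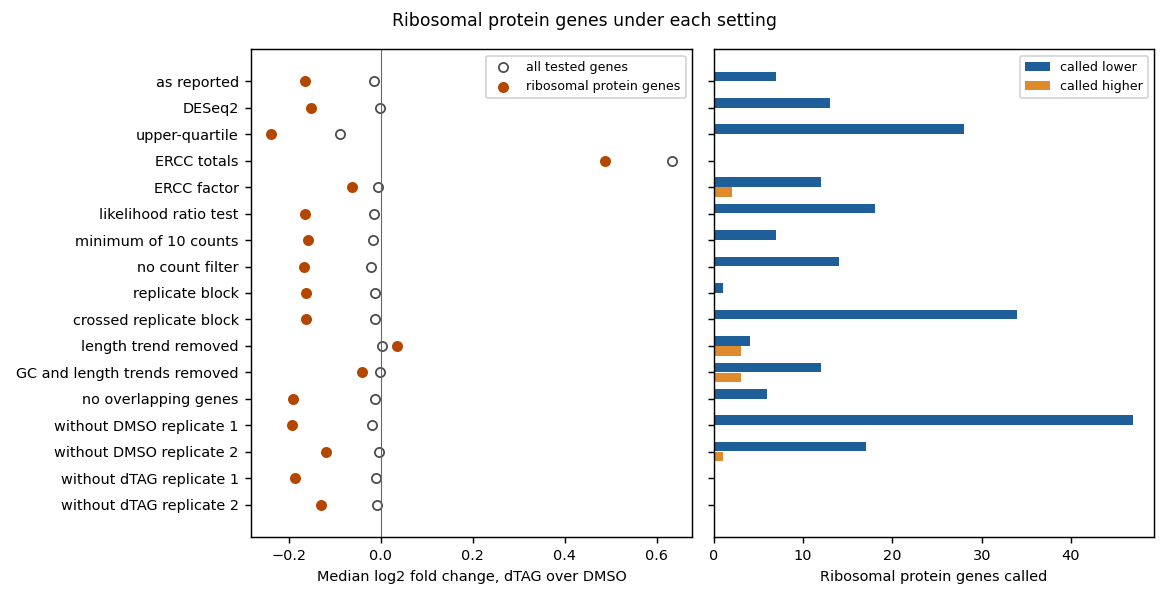
Left, the median log2 fold change of the ribosomal protein genes (filled) and of all tested genes (open) under each setting; right, the number of ribosomal protein genes called lower and higher at an adjusted p under 0.05. The filled points lie to the left of the open ones except where the length trend was removed (0.04 against 0.00), the ERCC totals move both sets to the right, and the counts called lower range from 0 to 47.

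The genes that surround ribosomal proteins in ribosome production had values on both sides of 0. RACK1, a small subunit component outside the symbol rule, had 59187 and 63849 counts with DMSO and 55590 and 46750 with dTAG (log2 fold change -0.21, adjusted p = 0.196 in edgeR's quasi-likelihood test). Of 50 genes for RNA polymerase I and rRNA processing, 49 were tested, 3 rose (3.44% of all tested genes did), 0 fell, and the median was 0.12. The 3 were TAF1D, a subunit of the polymerase I selectivity factor, at 0.37 (adjusted p = 0.0257), GAR1, of the H/ACA particles that pseudouridylate rRNA, at 0.35 (adjusted p = 0.0442), and WDR43, of the small subunit processome, at 0.34 (adjusted p = 0.0397). These 3 had both dTAG libraries above both DMSO libraries. The genes of this list are longer than those of ribosomal proteins (median interval 30460 bases), and with the length trend removed 11 of them were called higher, where 5.03% of all tested genes were, and 0 lower. Of 11 tested chaperones and loaders of ribosomal proteins, 0 were called (1 lower and 1 higher at an unadjusted p under 0.05) and the median was 0.11. At that unadjusted threshold, 14.3% of all tested genes were lower and 12.3% higher in edgeR's quasi-likelihood test.

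Other genes with TOP mRNAs had a median near 0, and the difference from the ribosomal protein genes was not tested. Of 21 translation factors and associated genes with TOP mRNAs, 20 were tested and 0 were called in either direction. At an unadjusted p under 0.05 in edgeR's quasi-likelihood test, 1 was lower and 2 higher, where 14.3% and 12.3% of all tested genes were. The 20 genes had a median of 0.02 and a median interval of 19524 bases, against 5567 bases for the ribosomal protein genes. With the length trend removed, the medians were 0.08 and 0.04. The elongation factors EEF1A1 and EEF2 had 101134 and 109559, and 123326 and 125131, counts with DMSO, and 90646 and 76575, and 109664 and 94724, with dTAG. Their log2 fold changes were -0.27 and -0.22 (adjusted p = 0.116 and 0.200 in edgeR's quasi-likelihood test). Among the ribosomal protein genes, the 45 tested ones with a TOP start had a median of -0.18 and 5 called lower. The 19 with a listed promoter but without it had -0.13 and 1, where 3.66% of all tested genes were called lower.

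Of 12 regulators of these genes or of their mRNAs, 1 was called higher and 0 lower, where 3.44% and 3.66% of all tested genes were. EIF4EBP1, the mTOR target that restrains cap-dependent translation, rose from 9581 and 11393 counts with DMSO to 13631 and 13134 with dTAG (log2 fold change 0.42, SE 0.09, adjusted p = 0.0090 in edgeR's quasi-likelihood test). MYC, a driver of ribosome production, was at -0.01 (adjusted p = 0.945), LARP1 at 0.17 (adjusted p = 0.228) and MTOR at 0.11 (adjusted p = 0.396). Ribosomal proteins of mitochondria, which build a separate ribosome, had 71 of 78 genes tested, 1 called lower, 0 higher, and a median of -0.03. The median interval of the mitochondrial set was 12561 bases, against 5567 for the cytosolic set. With the length trend removed, the medians were 0.09 and 0.04. The difference between the cytosolic and the mitochondrial set was not tested.

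**Figure D5:**
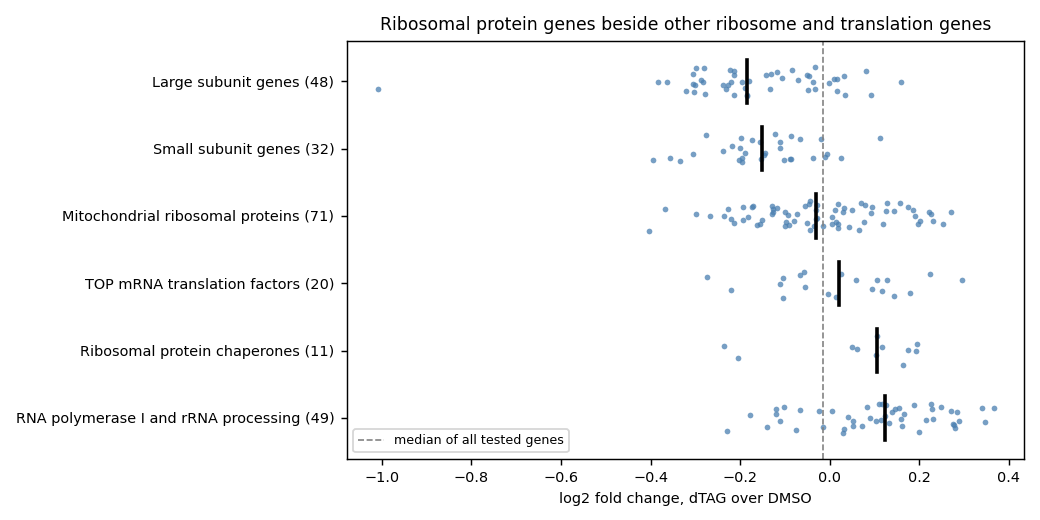
The log2 fold change, dTAG over DMSO, of every tested gene (points, spread vertically for sight) in 6 groups, with each group's median as a bar and that of all tested genes as a dashed line. The large and small subunit genes have medians of -0.18 and -0.15 under TMM scaling, the mitochondrial ribosomal proteins -0.03, and the RNA polymerase I and rRNA processing genes 0.12.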

How the data were processed

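TT-Seq libraries of HCT116 KAP1-dTAG cells were analysed, 2 with DMSO and 2 with dTAG. Per the methods and the labels, the authors used Trim Galore 0.6.4 for trimming, STAR for alignment to hg38 and featureCounts (Subread 1.6.3), which summed reads across whole gene intervals. The deposited values are raw counts of 19901 genes and 92 ERCC spike-in RNAs, without normalization. The study itself normalized to the spike-ins with EDASeq, RUVSeq and edgeR and used a likelihood ratio test. The main fit here departs from that, with TMM scaling and a quasi-likelihood test. The ERCC factor fit also uses a factor from the spike-in RNAs, and under it 51 genes of the set were below 0 and 29 above. The sources used here do not give how strand, overlapping genes or multiply mapped reads were treated. All 4 columns were used, and 0 columns lacked a sample.

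Symbols were taken from the Ensembl identifiers for 19802 genes, and GC content from hg38. The count minimum of the methods, 50 in every library, was applied, and the remaining genes were fitted with edgeR 4.0.16 (TMM, quasi-likelihood F test, two-sided) in R 4.3.3, with Benjamini-Hochberg adjustment over 12612 genes. CPM used TMM-scaled library sizes, levels were divided by the interval length, and the SE is the log2 fold change over the square root of F. In data simulated for this comparison with 12612 genes, the test found 96% of 2-fold and 74% of 1.41-fold changes, and 3.41% of its calls were false. The simulated counts had no trend of any library on GC content or length, which the real libraries had. These rates therefore need not hold for the real libraries. Alternatives were DESeq2 1.42.0, other scalings, filters and tests, removal of trends by lowess (span 0.3), a replicate block and leaving out each library.

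Named genes were the called members, the 8 with the highest and the 3 with the lowest level, those under the minimum, 9 chosen by role and the 8 duplicated pairs, and genes named outside this rule are marked. Values of 3 genes are not reported here. The members, gene lists and tests were chosen with earlier results of these data known.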

Additional observations from a re-analysis of the deposited data

How the results depend on the processing

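The count of genes called lower, 7 as reported, was 13 with DESeq2, 28 with upper-quartile factors and 0 with ERCC totals. Among all 12612 tested genes, 461 were called lower as reported, 582 with DESeq2, 869 with upper-quartile factors and 0 with ERCC totals. The count was 12 with the ERCC factor (525 of all), with 4 of the 7 genes among them, and 18 with the likelihood ratio test (864 of all). It was 14 of 85 with no count filter, where 744 of all 17450 genes were called lower. It was 4 with the length trend removed (418 of all) and 12 with the GC and length trends removed (941 of all). The count called higher, 0 as reported, was 2 with the ERCC factor and 3 with either trend removal. Of all tested genes, 434 were called higher as reported and 797 with the ERCC factor. With the length trend removed 635 were, and with the GC and length trends removed 1343. With 10 counts as the minimum, 7 were called lower and 0 higher, where 407 and 432 of all 13865 genes were. With genes that overlap no other gene, 6 and 0 of 47 were, where 338 and 304 of all 8291 genes were. The median was -0.24 with upper-quartile factors, 0.49 with ERCC totals, -0.062 with the ERCC factor, 0.036 with the length trend removed and -0.041 with the GC and length trends removed. Leaving out single libraries gave 0 to 47 genes called lower, 0 to 1 called higher, medians from -0.19 to -0.12 and a difference in share from -0.42 to -0.18 percentage points. The share of the genes without snoRNA hosts differed by -0.17. With ERCC totals 6 called genes had values above 0: RPL10 0.34, RPL18 0.33, RPL29 0.32, RPL36 0.34, RPS21 0.32 and RPS27L 0.29. Among the 32 named genes tested, values that passed no test changed sign for 19 with ERCC totals, 10 with the length trend removed and at most 6 under any other setting. Apart from the constructions themselves, the causes were not tested. The labels number the replicates but do not say what a number shares, and replicate 1 deviations correlated at -0.24 between the groups. With the replicate block, 1 gene (RPL3L) was called lower, where 178 of all 12612 tested genes were. With the numbers crossed, chosen after seeing the data, 34 were, where 1603 of all 12612 tested genes were called lower and 1587 higher.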

Other observations

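For 9 tested genes, RPL10, RPL27A, RPL30, RPL36, RPL37A, RPL4, RPS27L, RPS4X and RPS9, the interval in the table was over 2 times the RefSeq gene length. Their counts were summed over more sequence than the RefSeq gene, and where in the interval the reads lay was not tested. All 9 had values below 0, with a median of -0.22 and 3 called lower, against -0.15 for the 71 others, 4 of which were called lower. Of all tested genes, 3.66% were called lower. With the length trend removed, the 9 had a median of -0.22, whereas the 71 others had 0.05. The longest was RPL37A, at 80993 bases against 5243 in RefSeq, with 436 and 465 CPM with DMSO and 403 and 369 with dTAG. These groups were formed after the data were seen, and their difference was not tested.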
